A study of Mus musculus with 30 samples.

Results

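Of the 3572 regions called for Ikaros in thymocytes of WT mice, 755 shared no base with any of the 8221 regions listed for thymocytes of mice homozygous for the G158R substitution in Aiolos. These 755 regions, 21.1% of the WT list and part of 24749 regions in the 8 deposited lists, are described here. They were chosen from the deposited lists alone: a WT region was taken when no mutant region overlapped it by 1 bp or more. The remaining 2817 WT regions, called shared regions below, are the comparison set. The mutant list covered 4392157 bp and the WT list 1610781 bp, so that a WT region without a mutant partner stood against the longer of the lists.

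Aiolos, encoded by Ikzf3, and Ikaros, encoded by Ikzf1, are related zinc finger proteins of lymphocytes that pair with each other through zinc fingers at their carboxyl ends. Both recognise DNA around a GGGAA core through zinc fingers near their amino ends. In developing T cells Ikaros sits at enhancers and promoters, partly with the NuRD chromatin remodelling complex, and restrains genes of the Notch pathway, while in B cell precursors it takes part in the exit from the proliferating pre-B stage. A broad peak is a stretch of the genome where sequenced fragments pulled down with an antibody exceed the background that the peak caller estimates.

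The mice were on the C57BL/6 background. The thymocytes came from Ikzf3+/+ mice (WT) and Ikzf3m/m mice (homo, here also called mutant), and no age or sex was stated. The same monoclonal antibody against Ikaros was used on pre-B cells of both genotypes, which had been grown in culture from B220+IgM- cells of bone marrow. The culture used Tst-4 stroma, IL-7, Flt3L and SCF, so they are cultured cells and not cells taken straight from the animal. For RNA, bone marrow was sorted into pre-B and pre-pro B cells of WT, heterozygous (het) and homo mice, 3 libraries in each of 6 groups. Each of the 8 ChIP libraries with a list was the only library of its antibody, genotype and cell type. Presence or absence in a list therefore has no replicate check, and no test between genotypes was possible for the regions. Thymocyte RNA was not analysed here, so the thymocyte label could not be set against marker genes.

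Sequence could be read only where a region touched a promoter window, the 300 bases from 250 before to 50 after a RefSeq gene start (GRCm38.p6, the assembly of mm10). Of the 755 regions, 21 overlapped such windows, 27 windows of 25 genes in all. The windows below are shown because each carried a WT Ikaros region that the mutant list lacked, and because they belong to Ppp1r15a, which encodes the stress-induced phosphatase subunit GADD34, Tnfaip3, which encodes the NF-kappaB inhibitor A20, Lxn, which encodes the carboxypeptidase inhibitor latexin, and Irf2, which encodes an interferon regulatory factor. Each is written 5′ to 3′ along the gene's strand, with GGGAA or its reverse complement in capitals.
Ppp1r15a: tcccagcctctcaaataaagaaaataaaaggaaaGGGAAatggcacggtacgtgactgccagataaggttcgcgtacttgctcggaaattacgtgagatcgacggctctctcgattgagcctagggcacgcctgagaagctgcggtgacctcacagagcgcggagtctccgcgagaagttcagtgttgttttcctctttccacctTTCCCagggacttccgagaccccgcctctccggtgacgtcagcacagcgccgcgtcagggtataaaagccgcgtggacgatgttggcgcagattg
Tnfaip3: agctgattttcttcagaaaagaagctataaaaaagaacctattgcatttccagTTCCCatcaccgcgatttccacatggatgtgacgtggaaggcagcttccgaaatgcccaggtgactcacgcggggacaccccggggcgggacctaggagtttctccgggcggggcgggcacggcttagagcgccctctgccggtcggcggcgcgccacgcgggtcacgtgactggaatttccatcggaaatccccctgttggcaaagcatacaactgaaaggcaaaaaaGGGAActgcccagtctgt
Lxn: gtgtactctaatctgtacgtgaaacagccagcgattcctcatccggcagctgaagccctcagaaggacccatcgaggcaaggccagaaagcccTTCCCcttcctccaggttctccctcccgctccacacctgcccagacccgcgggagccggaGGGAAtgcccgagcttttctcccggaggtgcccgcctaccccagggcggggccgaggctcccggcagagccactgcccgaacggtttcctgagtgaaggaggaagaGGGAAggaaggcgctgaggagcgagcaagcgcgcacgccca
Irf2: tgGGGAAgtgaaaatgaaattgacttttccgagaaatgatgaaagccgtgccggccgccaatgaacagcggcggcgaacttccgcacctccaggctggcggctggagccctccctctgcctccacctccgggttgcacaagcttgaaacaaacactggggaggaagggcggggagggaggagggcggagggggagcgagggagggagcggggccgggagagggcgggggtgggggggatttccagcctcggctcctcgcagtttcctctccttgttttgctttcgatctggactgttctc
The Ppp1r15a window, on the minus strand at chr7:45526219-45526518, overlapped the region at chr7:45526147-45526425 by 207 bp and held the core 2 times. The Tnfaip3 window, on the minus strand at chr10:19015361-19015660, contained the whole of the 242 bp region at chr10:19015373-19015614 and also held the core 2 times. The Lxn window, on the minus strand at chr3:67463858-67464157, shared 77 bp with the region at chr3:67463074-67463934 and held 3 cores. The Irf2 window, on the plus strand at chr8:46739495-46739794, shared 225 bp with the region at chr8:46739570-46739922 and held 1 core, outside that region. Cores were counted over whole windows, and those of Ppp1r15a and Lxn do not all lie in the part shared with the region.

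Over the 27 windows, 21 (77.8%) held GGGAA on either strand, against 74.5% of the 494 windows that overlapped a shared region and no other, and 62.7% of all 32851 windows in the table. The longer TGGGAA, which contains GGGAA, was found in 18.5%, 28.9% and 25.6% of these sets. The ETS core GGAAG, which can overlap GGGAA, was found in 81.5%, 85.6% and 71.4%, and the RUNX site TGTGGT in 14.8%, 14.6% and 16.8%. All motifs were searched on both strands. Median GC content was 57.3% in the windows at regions absent in the mutant, 62% in those at shared regions and 52.7% in all windows. Of the 4 motifs only GGAAG followed the order of GC content over the 3 sets.

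The regions absent in the mutant were mostly weak and narrow within the WT list. These values belong to the library that defined the set and are given as a description. The fold, as deposited, relates the signal at a region to its background. Its median was 3.969 (quartiles 3.506 and 4.535) for the 755 regions and 4.89 (3.96 and 6.828) for the shared regions. The highest fold among the 755 was 10.82, while shared regions reached 37.89. Median width was 245 bp (quartiles 205 and 323) against 368 bp (270 and 585). The deposited −log10 q-value had a median of 3.758 against 6.887. A −log10 q-value of 10 or more was reached by 37 regions (4.9%) of the 755 and by 1023 (36.3%) of the shared regions.

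**Figure D1:**
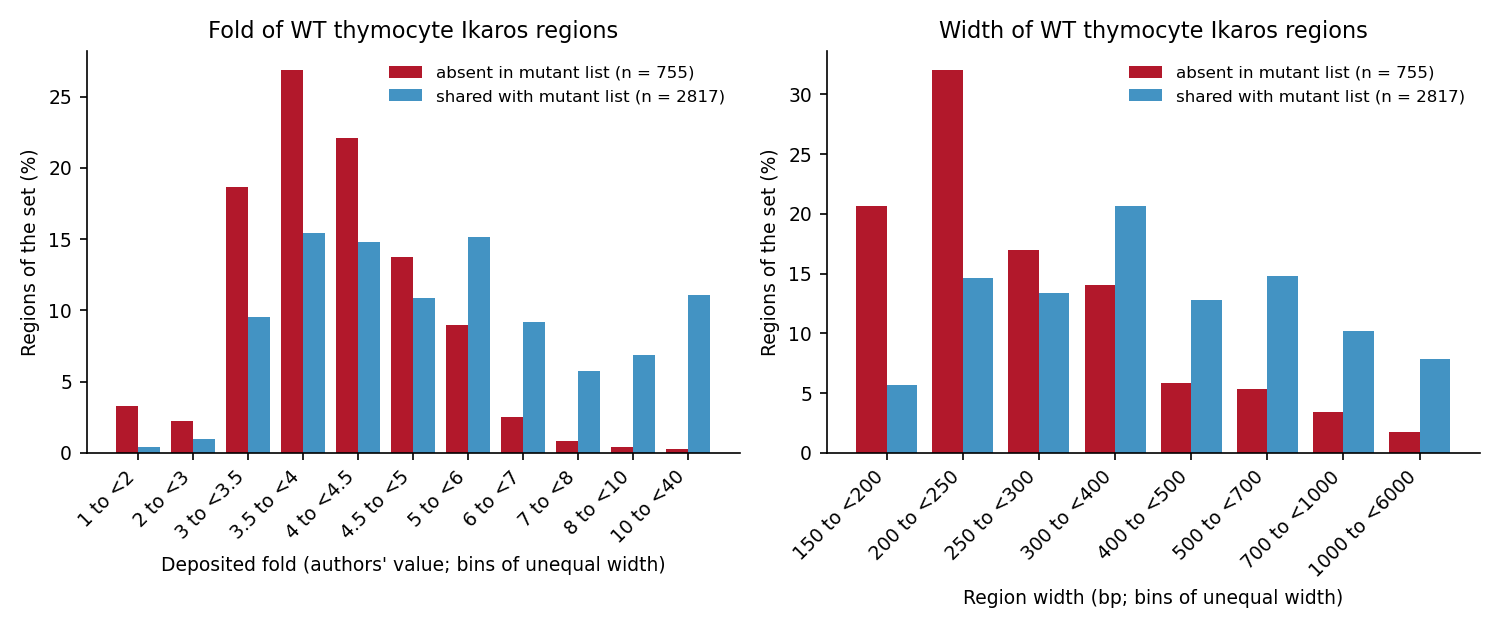
Share of regions (%) in bins of the deposited fold (left) and of width in bp (right), for the 755 WT thymocyte Ikaros regions absent in the mutant list (red) and the 2817 shared regions (blue); bins have unequal widths. The red bars lie to the left of the blue in both panels, with medians of 3.969 against 4.89 for fold and 245 against 368 bp for width.

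When the 3572 WT regions were divided into 4 equal strength groups by −log10 q-value, a division made after the values were seen, 328 of 893 regions (36.7%) in the weakest strength group were absent in the mutant. The number fell to 262 (29.3%), 140 (15.7%) and 25 (2.8%) in the next 3 strength groups. The strongest strength group, with −log10 q-values from 12 to 215, thus still held 25 regions without a mutant partner.

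The mutant list was not far away for most of the 755. The nearest mutant region lay at a median distance of 34030 bp, 190 regions (25.2%) had one within 10 kb and 575 (76.2%) had one within 100 kb. Only 7 had one within 500 bp and 55 within 2 kb. The 3 regions closest to a mutant region lay 58 bp from it beside Ubox5 (chr2:130630125-130630374, fold 3.53), 146 bp from it in Atf7 (chr15:102624927-102625115, fold 4.09) and 156 bp from it in Boll (chr1:55363271-55363502, fold 4.37). On the other side of the rule, the 3 shared regions with the smallest overlap shared 15 bp with a mutant region in Cnot4 (chr6:35121394-35121580, fold 3.17), 44 bp at chr17:13552220-13552800 (fold 1.48) and 51 bp at chr9:72218211-72218397 (fold 3.89).

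**Figure D2:**
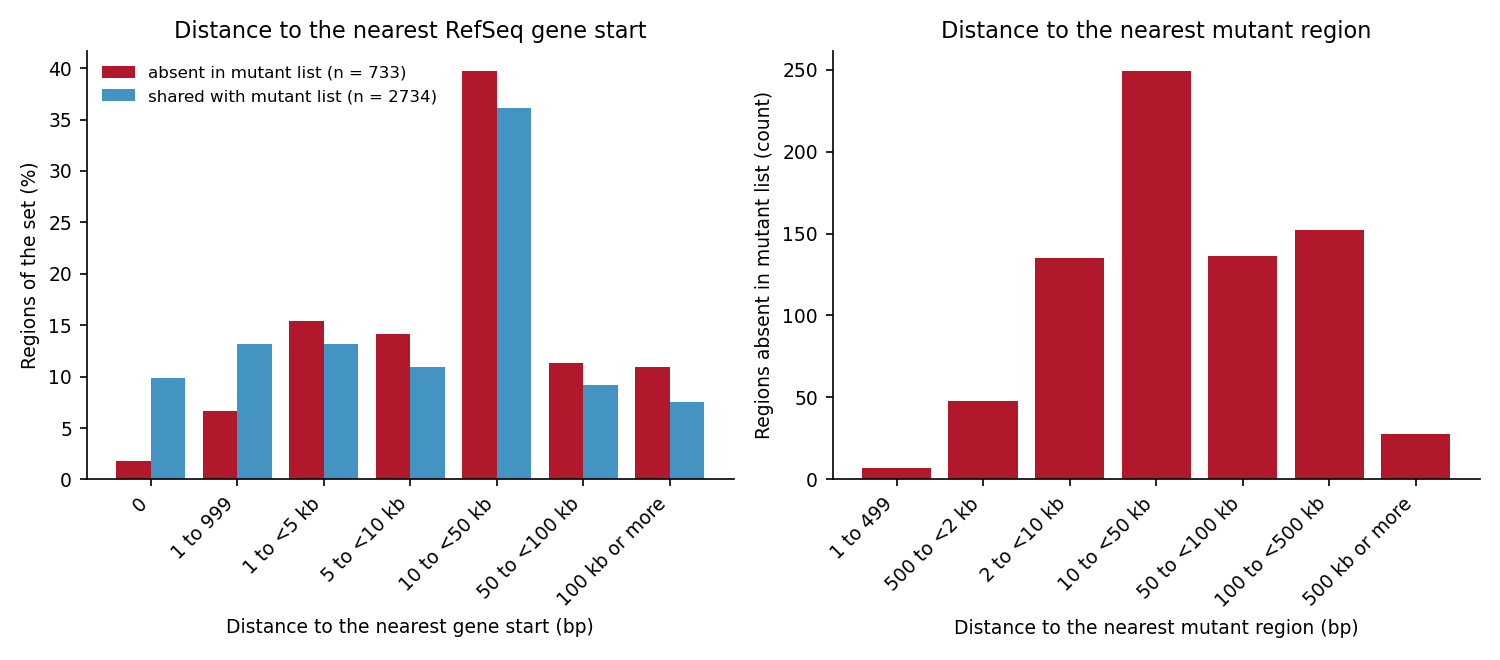
Left, share of regions (%) by distance in bp to the nearest listed RefSeq gene start, for 733 regions absent in the mutant (red) and 2734 shared regions (blue) on chromosomes with promoter windows. The list lacks the starts of some genes. Right, count of the 755 regions absent in the mutant by distance in bp to the nearest mutant region; the fullest bin, 10 to 50 kb, holds 249 regions.

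Of the 15 regions of highest fold, the highest, at chr14:54147167-54147845 with a fold of 10.8 and a −log10 q-value of 34.1, lay within the T cell receptor alpha and delta locus, 817 bp from the variable segment Trdv5. By fold it ranked 249 of the 3572 WT regions. The nearest mutant region was 15064 bp away and neither pre-B Ikaros list held it. The next, at chr9:117138019-117138600 (fold 10.5), lay within Rbms3, which encodes an RNA-binding protein, with no mutant region within 771403 bp. A further Rbms3 region, at chr9:117153703-117153940, had a fold of 3.15. In Disp1, whose product releases Hedgehog ligands, the region at chr1:183186863-183187170 had a fold of 8.41. In Tbcel, a tubulin cofactor gene, the region at chr9:42458407-42458945 had a fold of 8.06 and ended 807 bp from a gene start.

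The region at chr10:81567988-81568404 (fold 7.82) lay 1617 bp from Tle5, listed in the count table as Aes, a gene of the Groucho family of corepressors. The region at chr15:78602424-78602864 (fold 7.79) lay in Cyth4, which encodes a guanine nucleotide exchange factor for ARF proteins. Regions in Lgmn, encoding the lysosomal protease legumain (chr12:102419449-102419720, fold 7.08), Dnase2b, encoding an acid nuclease (chr3:146583946-146584308, fold 7.03), and Tbc1d22a (chr15:86438783-86439147, fold 6.82) followed. The other members of the top 15 lay outside protein-coding genes: 8088 bp from the odorant receptor gene Olfr520 (fold 8.02), 16728 bp from Fam81a (7.5), 38792 bp from Nefl (7.05), 50382 bp from 9530068E07Rik (6.85), 119537 bp from Zfp36l2 (6.84) and 61057 bp from Foxf1 (6.83). RefSeq gene starts came from another list, which has more genes but lacks the starts of some. The nearest listed start was 14273 bp from the Zfp36l2 region and 288 bp from the Foxf1 region. For the Nefl region it was 392347 bp away, farther than Nefl itself.

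The antigen receptor loci were looked at after this first region was seen. In the Tcra and Tcrd locus 6 of 26 WT regions (23.1%) were absent in the mutant, in the Tcrb locus 2 of 4, and in the Igh locus 1 of 6. For all WT regions the share was 21.1%. The Tcra and Tcrd locus had 28 regions in the mutant list. Its other regions absent in the mutant had folds from 3.53 to 6.54, the highest at chr14:53470516-53470769, 285 bp from Trav8-1. Of the 9 regions in the 3 loci, 1, at chr6:41100828-41101090 in the Tcrb locus with a fold of 4.77, was held by the mutant pre-B list, and none by the WT pre-B list.

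The pre-B Ikaros lists were not used to choose the regions. The WT pre-B list, with 3683 regions, held 183 of the 755 (24.2%, 95% Wilson interval 21.3 to 27.4) and 1012 of the 2817 shared regions (35.9%, 34.2 to 37.7); over all WT thymocyte regions the share was 33.5%. The mutant pre-B list, with 8609 regions, held 271 of the 755 (35.9%, 32.6 to 39.4) and 1479 of the shared regions (52.5%, 50.7 to 54.3), against 49% of all WT thymocyte regions. Both shares were lower for the regions absent in mutant thymocytes, and the intervals did not overlap. These intervals cover counting error only, with neighbouring regions counted as independent.

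Of the 755 regions, 169 (22.4%) were in both pre-B lists, 14 (1.85%) only in the WT pre-B list, 102 (13.5%) only in the mutant pre-B list and 470 (62.3%) in neither. The 271 regions held by the mutant pre-B list were thus called in mutant cells of another lineage. Among the shared regions 979 (34.8%) were in both, 33 (1.17%) in the WT pre-B list alone, 500 (17.7%) in the mutant pre-B list alone and 1305 (46.3%) in neither. Within the set, median fold in the WT thymocyte list was 4.125 for regions in both pre-B lists, 4.806 for the 14 in the WT pre-B list alone, 3.832 for those in the mutant pre-B list alone and 3.914 for those in neither.

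Strength in the WT thymocyte list moved with these shares, so they were also taken within the strength groups of −log10 q-value. In the weakest strength group the WT pre-B list held 18.6% (14.8 to 23.2) of the regions absent in the mutant and 9.56% (7.4 to 12.3) of the shared regions, the opposite order to the whole lists. In the second strength group the shares were 24.8% (20.0 to 30.4) and 17.9% (15.1 to 21.1), and in the third 34.3% (26.9 to 42.5) and 34.8% (31.5 to 38.3). In the strongest strength group they were 36% (20.2 to 55.5) of 25 regions and 67.2% (64.0 to 70.2) of 868. For the mutant pre-B list the shares from the weakest to the strongest strength group were 32.9% against 27.6%, 35.5% against 39.3%, 42.9% against 55.1% and 40% against 76%. The lower share in the pre-B lists was thus found in the strongest strength group for both lists. It was also found in the third strength group for the mutant list, with intervals of 35.0 to 51.1 and 51.5 to 58.6. The strongest strength group was not matched for strength. Its regions absent in the mutant had a median fold of 6.84 against 8.66 and a median width of 417 against 585 bp. Their −log10 q-values reached 34.09, and those of shared regions 214.9.

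**Figure D3:**
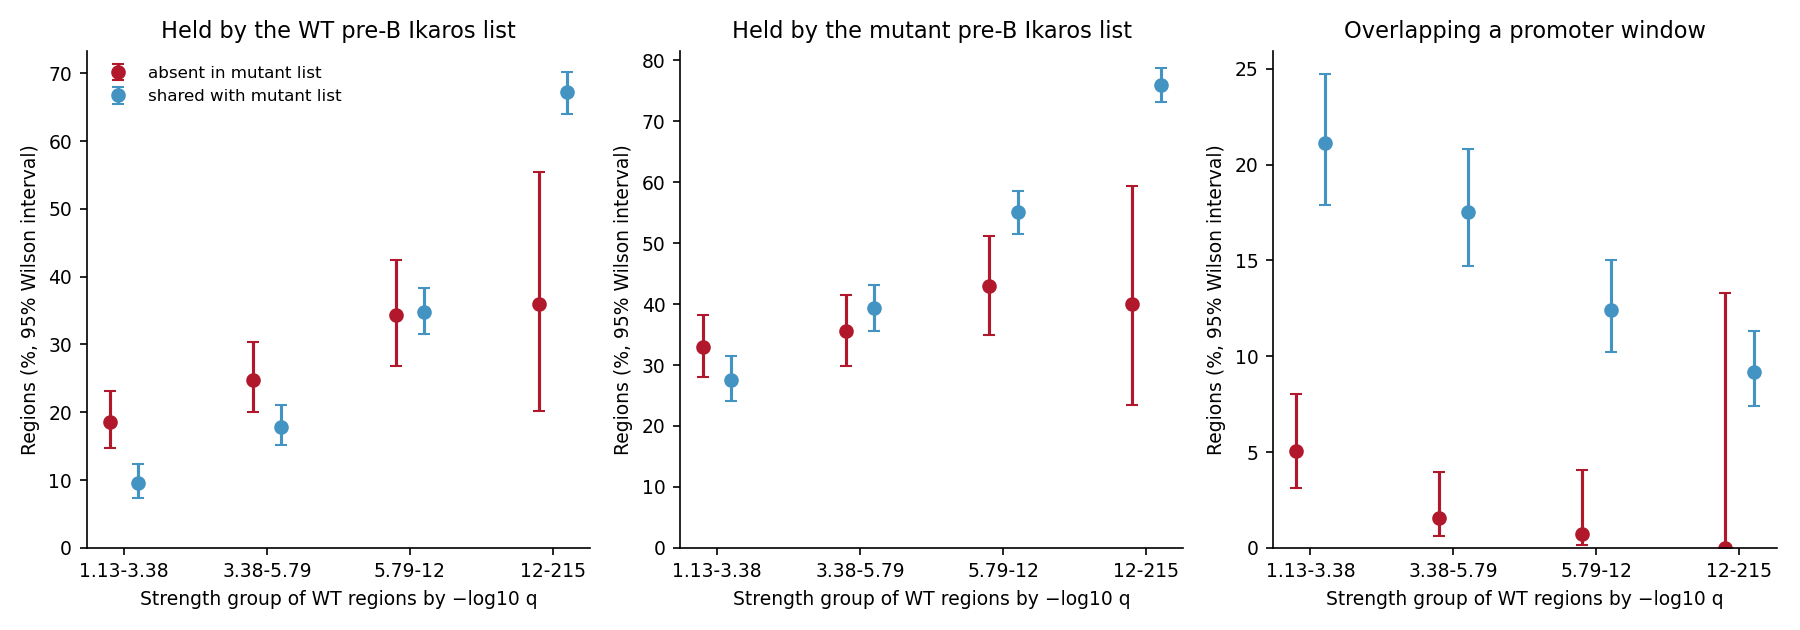
Share of WT thymocyte regions (%, points, with 95% Wilson intervals as bars) held by the WT pre-B list (left), held by the mutant pre-B list (middle) or overlapping a promoter window (right), in 4 strength groups of the WT list by −log10 q-value, for regions absent in the mutant list (red) and shared regions (blue). In the left panel red lies above blue in the 2 weaker strength groups and below it in the strongest (36% against 67.2%), and in the right panel red lies below blue in every strength group.

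Of the regions in both pre-B lists, the 12 of highest fold are given with each list's own values. The Disp1 region had folds of 3.33 and 5.15 in the WT and mutant pre-B lists, and the Cyth4 region 4.86 and 5.11. The Dnase2b region had 9.47 and 9.73, the highest pre-B folds of the 12 named here. The region in Dock11 (chrX:35898157-35898668, fold 6.67), a gene for an activator of the small GTPase CDC42, had 8.77 and 6.58. The region in Ptprs (chr17:56444370-56444694, fold 6.63), which encodes a receptor tyrosine phosphatase, had 7.79 and 7.41. The remaining ones of the 12 lay in Lgmn, 16738 bp from Sp3, which encodes a zinc finger factor, 29745 bp from Prex1, an exchange factor for RAC, 34802 bp from Odc1, the first enzyme of polyamine synthesis, 3381 bp from Alox8, and near Nefl and Zfp36l2 as given above.

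The 14 regions in the WT pre-B list alone are the only sites of the set that both WT lists held and both mutant lists lacked. They were singled out after their values were seen. The strongest, at chr11:52459105-52460004, had a fold of 6.85, and further ones lay in Lrrc9 (chr12:72491739-72492449, fold 5.98), Ralgapa2 (chr2:146407406-146407699, fold 5.39), Ranbp17 (chr11:33447052-33447804, fold 5.32) and Serinc5 (chr13:92612275-92612570, fold 5.14). The Ralgapa2 region, in a gene for a regulator of RAL GTPases, had the highest fold of these 5 in the WT pre-B list, 6.88.

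Few of the regions lay at listed promoter windows. On the chromosomes with promoter windows, 21 of 733 regions (2.86%, 1.88 to 4.34) overlapped one, against 390 of 2734 shared regions (14.3%, 13 to 15.6). Within 1 kb of a listed gene start lay 8.59% against 23.1%, and the median distance to a listed start was 16330 bp against 11380 bp. The list lacked the starts of some genes, so in both sets these shares can be too low and these distances too long. Whether this bears equally on both sets was not tested. The lower promoter share held within each of the 3 weaker strength groups: 5.03% against 21.1%, 1.57% against 17.5% and 0.735% against 12.4%. In the strongest strength group 0 of 25 regions overlapped a window, with an upper bound of 13.3%, so a difference from the 9.17% of shared regions was not detectable at this count. None of the 21 promoter regions was in either pre-B Ikaros list, against 18.2% and 44.6% of the 390 shared promoter regions in the WT and mutant pre-B lists. With 21 regions, a count of 0 has an upper bound of 15.5%. This comparison was added after the values were seen.

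The promoter regions were among the weaker of the set, with folds from 3.17 to 4.77 and a median of 3.533. The strongest overlapped the windows of both Ppp1r15a and Plekha4 (fold 4.77), and others at Gm5165 (4.57), Tmem87b (4.23), Ift52, a gene of ciliary transport (4.04), Sirt6, a histone deacetylase gene (3.98), Polg2, a subunit of the mitochondrial DNA polymerase (3.87), and Tnfaip3 (3.85). The Irf2 region was the weakest, with a fold of 3.17 and a mutant region 1737 bp away.

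Gene bodies were close to most of the regions. Within 10 kb of a gene lay 498 (66.0%, 62.5 to 69.3) of the 755 and 71.7% of the shared regions, and 370 (49.0%) overlapped a gene body, against 55.2%. In all 609 protein-coding genes or receptor segments had one of the regions within 10 kb. Of these, 142 also had a shared region that near, and 328 had a mutant region within 10 kb, so that 281 genes (46.1%) had none.

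Genes of T cell development were among those with a region. Of 33 genes of the T lineage list, 6 had one of the regions within 10 kb, 23 had a shared region and 31 a mutant region. Over all 22397 genes with a position, 2.72% had one of the regions that near and 9.99% a shared region, and the lists were chosen with results known, so nothing is read from these counts about the lists. Lck, the kinase that starts T cell receptor signalling, held a region at chr4:129569038-129569294 (fold 5.52). Satb1, a chromatin organiser of thymocytes, had one 3793 bp away at chr17:51732154-51732394 (fold 4.67). Cd28, the costimulatory receptor, held one at chr1:60761904-60762175 (fold 4.57), and Themis, needed for positive selection, one at chr10:28778220-28778447 (fold 4.24). Lat, the adaptor that relays the receptor signal, had one 6301 bp away (fold 4.05). Runx1, a transcription factor of blood cell development, held a pair, with folds of 3.92 and 3.66. None of these regions was in a pre-B Ikaros list, and each of the 6 genes also had a mutant region within 10 kb.

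The other lists had fewer. Of 24 Notch pathway genes 1 had a region, the ligand gene Dll4 (fold 4.43, 3538 bp away). Of 26 B lineage genes 2 did: Foxo1, a regulator of early B cells, with a region inside (chr3:52319216-52319670, fold 4.99, also in the mutant pre-B list), and Bach2, a repressor of plasma cell fate, with one inside (chr4:32242503-32242703, fold 3.47, also in both pre-B lists). Of 22 genes of the Ikaros family and NuRD 1 did, Gatad2b, a NuRD subunit gene (fold 4.59). Of 25 adhesion and migration genes 4 did: the integrin genes Itga6 (fold 4.34, 8 bp away) and Itgb2 (3.18, inside), Pxn, encoding the focal adhesion adaptor paxillin (4.57, 262 bp away), and Ccr7, a chemokine receptor gene (3.79, 107 bp away). Of 28 cell cycle genes 2 did, Ccna2, the cyclin A2 gene (5.92, 6953 bp away), and Cdkn2a, which encodes the inhibitors p16 and p19ARF (3.28, inside, in both pre-B lists). None of 21 genes of glucose and energy metabolism did. Ikzf1 and Ikzf3 had no such region within 10 kb, but each had a shared one.

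Some regions lay close together. Regions of the set formed 5 groups of 3 or more within 100 kb. The first spanned chr10:81565937-81627709 over Tle5, Tle2, Tle6 and Sirt6, with 3 regions of fold 3.62 to 7.82. The next, at chr14:121955147-121987858 over Ubac2 and Gpr183, a receptor gene that guides lymphocyte positioning, had 3 regions of fold 3.31 to 5.17 and no mutant region. Another at chr5:23350846-23422662 held 3 regions and no protein-coding gene. The remaining ones held 10 each, at chr9:3000241-3038295 and on the unplaced scaffold JH584304.1, with folds of only 1.37 to 1.72 and 1.39 to 1.61. On that scaffold 10 of 13 WT regions were absent in the mutant. The 2 widest regions of the set, of 4089 and 3116 bp, lay there, and the next, of 2999 bp, lay in Syne1. Most of the few overlaps with Aiolos regions also lay at these places. All 4 regions of the set in the WT thymocyte Aiolos list and the 1 in the mutant one were in the chromosome 9 group, with folds up to 1.58. Of the 13 in the WT pre-B Aiolos list, 9 were in these groups. The 1 in the mutant pre-B Aiolos list was in the chromosome 9 group. In the order named, these Aiolos lists held 0.53%, 0.132%, 1.72% and 0.132% of the 755 regions. They held 0.284%, 0.568%, 0.319% and 0.319% of the shared regions, and 0.336%, 0.476%, 0.616% and 0.28% of all WT regions. Without the 2 groups of 10, the set counted 735 regions and the WT pre-B list held 24.6% of them.

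Whether genes near the regions change in RNA was asked in B cell precursors, a different cell type from the thymocytes in which the regions were found. In pre-B cells homo against WT, 98 of 415 tested genes within 10 kb of one of the regions were called (23.6%), 36 higher and 62 lower, by edgeR's quasi-likelihood test with Benjamini-Hochberg adjusted p under 0.05. Over all 11411 genes tested, 15.9% were called, 7.42% higher and 8.45% lower, and of the 1646 genes near a shared region 19.4% were called. In pre-pro B cells 117 of 439 were called (26.7%), 59 higher and 58 lower, against 22.4% of all 12188 genes, 12% higher and 10.4% lower, and 27% of genes near a shared region. The median log2 fold change was −0.01 for the genes near one of the regions and 0.02 for all genes in pre-B cells, and 0.03 and 0.01 in pre-pro B cells. Median WT levels were 61.2 CPM (gene counts scaled to a common library size) near one of the regions and 45.5 over all genes in pre-B cells; the part of level in the shares was not tested. Genes near one of the regions that also had a mutant region within 10 kb were called in 26.2% of 260 cases in pre-B cells, and those without one in 19.4% of 155. In pre-pro B cells the order was the other way, 26% of 269 and 27.6% of 170. Neither difference was tested.

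The libraries limit these counts, more so in pre-pro B cells. There, WT libraries held 5443344 to 6492192 gene counts and homo libraries 8592557 to 9048055. In each stage all 3 WT libraries were XX by their Xist and Y-linked counts and 2 of 3 homo libraries were XY. With library size as a covariate 10 genes near one of the regions were called in pre-pro B cells, all among the 117, and with a sex term 25, of which 24 were among them. In pre-B cells the covariate gave 152 calls, which included the 98, and the sex term 69, of which 66 were among the 98. Leaving out a library moved the pre-pro B count to as low as 38 (without WT replicate 1), 47 (without homo replicate 2), 51 (without WT replicate 2) and 58 (without homo replicate 3). In pre-B cells it fell to 61 and 63 without WT replicates 1 and 2. One pre-B homo library, replicate 3, was shallow, with 1888871 counts, and without it 108 genes were called. The labels do not say that replicates came from separate animals. The het and homo groups held both XX and XY libraries and so at least 2 animals each, while for WT the spread between samples may be technical.

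The strongest falls in pre-B cells near one of the regions were those of Galnt10, Sh3pxd2a, Cyth4, Tle2, Trim7 and St8sia6, of which the first 5 also fell in het cells. Galnt10, which encodes an enzyme that starts O-linked glycosylation, stood at 92.8, 96.7 and 86.8 CPM in WT libraries. Het libraries held 11.6, 7.31 and 16.8 CPM, and homo libraries 2.05, 3.54 and 0.599. The groups did not overlap, and the log2 fold change of homo against WT was −5.20 ± 0.36 (SE; edgeR adjusted p = 2.27e-05). Its region, at chr11:57664761-57665068 with a fold of 3.62, lay inside the gene, in neither pre-B Ikaros list. Sh3pxd2a, encoding the podosome scaffold TKS5, stood at 107, 96.9 and 93.3 CPM in WT and 7.89, 14.2 and 5.99 in homo libraries (−3.30 ± 0.25, edgeR adjusted p = 3.41e-05), with its region inside (fold 4.06). Cyth4, which held one of the strongest regions, stood at 38.8, 32.3 and 28.9 CPM in WT and 3.79, 5.24 and 1.8 in homo libraries (−3.03 ± 0.28, edgeR adjusted p = 7.92e-05).

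Tle2, a Groucho corepressor gene between regions of the chromosome 10 group, stood at 3.81, 4.28 and 3.53 CPM in WT and 0.158, 0.462 and 0.599 in homo libraries (−3.40 ± 0.46, edgeR adjusted p = 0.000771). Trim7, a ubiquitin ligase gene, had 45 counts in WT and 3 in homo libraries in all, a ratio of 12 with a 95% counting interval of 3.85 to 60.4 (edgeR adjusted p = 0.0122, 0.0544 without WT replicate 1 and 0.0515 without homo replicate 2). St8sia6, a sialyltransferase gene, had 25 and 1, a ratio of 20.0 with an interval of 3.27 to 821 (edgeR adjusted p = 0.0279, and up to 0.109 when single libraries were left out). Lxn, whose promoter window is printed above and which was named after its values were seen, stood at 46.5, 49.8 and 56.8 CPM in WT and 10.7, 16.2 and 19.2 in homo libraries (−1.79 ± 0.26, edgeR adjusted p = 0.00112). Of the other genes with a printed window, Ppp1r15a rose in pre-B cells, from 42.7, 35.9 and 37.9 to 87.4, 63.0 and 55.7 CPM (0.84 ± 0.17, edgeR adjusted p = 0.00764). Tnfaip3 (−0.39 ± 0.12, edgeR adjusted p = 0.0576) and Irf2 (0.48 ± 0.22, 0.177) did not pass the test.

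Rises in pre-B cells near one of the regions were smaller. A few markers of other cells moved there too, mainly 1 gene in each list. Of the 5 natural killer markers, Klrb1c went from a mean of 1.78 CPM in WT to 10.1 in homo libraries. Of the 5 myeloid markers, Itgam went from 52.3 to 122. The natural killer list summed to 1.59 to 2.14 CPM in WT and 10.8 to 14.4 in homo libraries. The myeloid list summed to 52.9 to 56.0 and 114 to 150. In each list only 1 marker was called. The part of these markers in the rises was not tested. Gimap4, a GTPase gene of lymphocytes, stood at 10.3, 10.9 and 9.95 CPM in WT and 43.4, 60.9 and 110.0 in homo libraries (2.73 ± 0.38, edgeR adjusted p = 0.000963), with its region 1829 bp away and in both pre-B lists. Trio, which encodes a guanine nucleotide exchange factor, stood at 104, 100 and 80.3 CPM in WT libraries, at 232, 215 and 248 in het libraries, and at 399, 361 and 418 in homo libraries (2.05 ± 0.13, edgeR adjusted p = 1.48e-05). No WT library overlapped a het or homo one for Trio. Its region (chr15:28022492-28022733, fold 4.85) lay inside the gene and in both pre-B lists. Cdkn2a rose by 2.58 ± 0.49 (edgeR adjusted p = 0.0057) from a mean of 0.706 ± 0.64 (SD, n = 3) to 4.03 ± 1.57 CPM, Antxr1, an anthrax toxin receptor gene, by 2.29 ± 0.27 (0.000331), Sestd1 by 2.04 ± 0.32 (0.00178) and Slit1, a guidance cue gene, by 1.77 ± 0.29 (0.00262), all by edgeR.

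**Figure D4:**
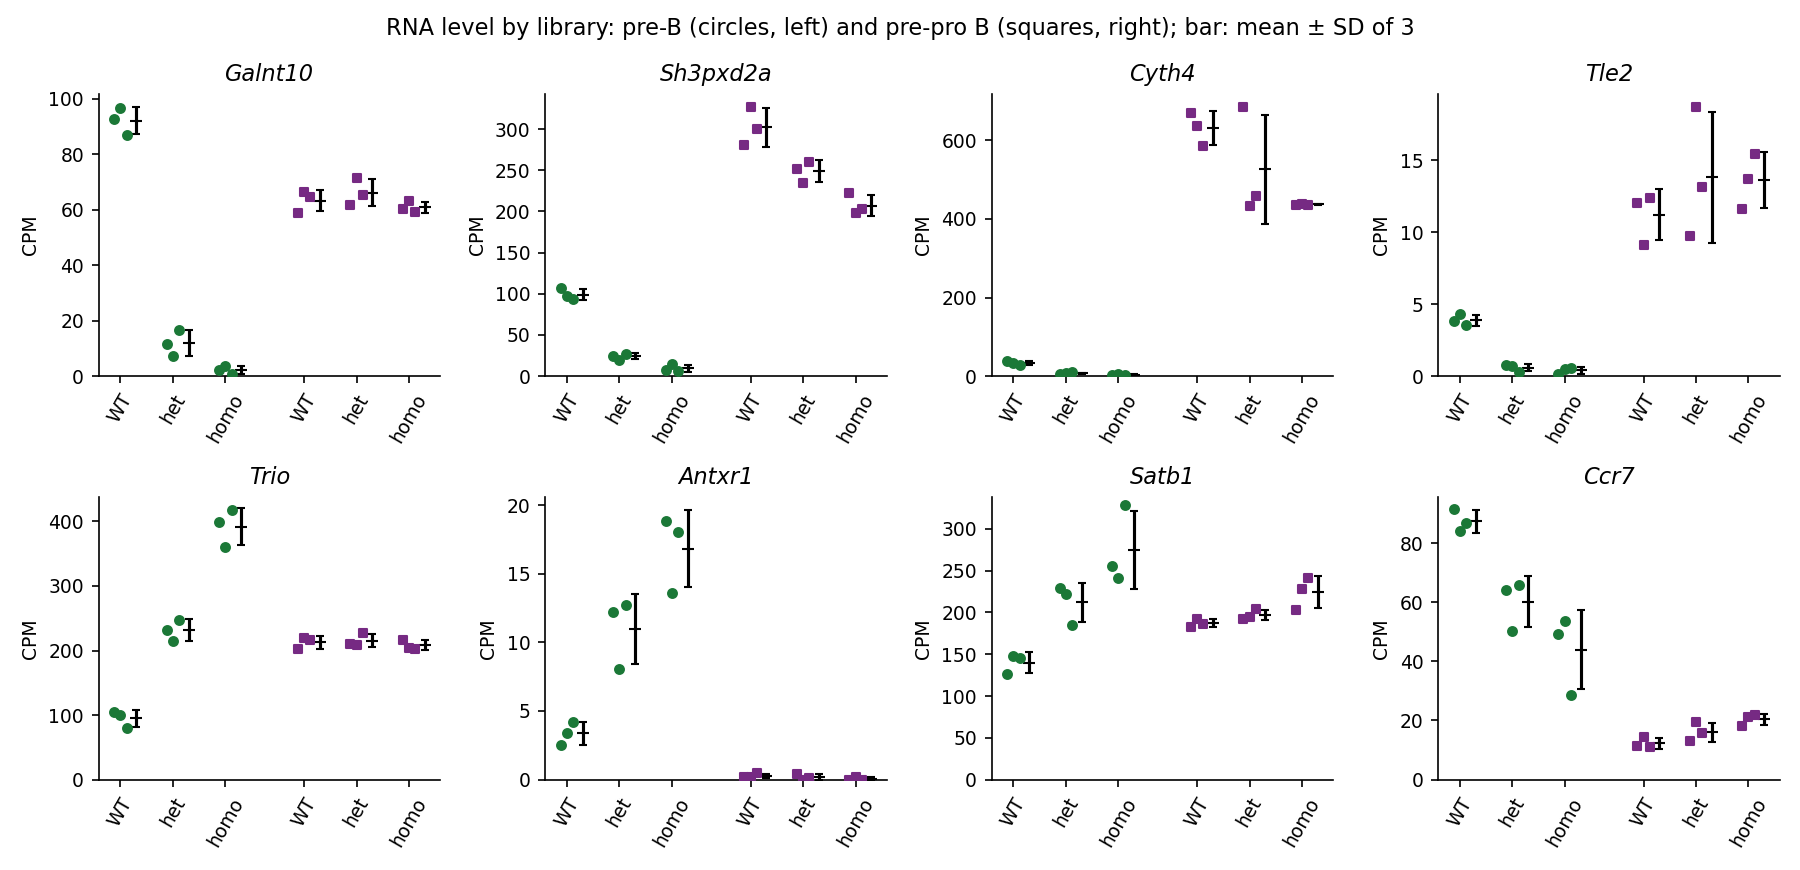
RNA level (TMM-normalised CPM, linear axes from 0) of 8 genes within 10 kb of one of the regions, in pre-B (green circles) and pre-pro B libraries (purple squares) of WT, het and homo mice; each point is a library and the black bar beside it the mean ± SD of 3. In pre-B cells Galnt10, Sh3pxd2a, Cyth4 and Tle2 lie far lower in het and homo than in WT, and Trio and Antxr1 rise from WT over het to homo.

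Of the T lineage genes with one of the regions, Satb1 rose in pre-B cells from 126, 148 and 145 CPM in WT to 256, 241 and 328 in homo libraries (0.97 ± 0.14, edgeR adjusted p = 0.00139). Runx1 rose in pre-B cells by 0.42 ± 0.10 (edgeR adjusted p = 0.0144) and in pre-pro B cells by 0.44 ± 0.10 (0.0109). Lck fell in pre-B cells, from 40.4, 39.3 and 41.7 CPM to 22.4, 27.3 and 20.4 (−0.77 ± 0.18, edgeR adjusted p = 0.0171), and its value in pre-pro B cells was 0.54 ± 0.18 (0.0559). The pre-B call of Lck was lost without any one of the WT replicates or without homo replicate 1 (edgeR adjusted p from 0.055 to 0.0702). That of Runx1 was lost without WT replicate 1 (0.0865), WT replicate 2 (0.0712) or homo replicate 1 (0.0512). With a sex term both were lost, at 0.0763 and 0.0581. Themis was at or near 0 in both stages, and Cd28 stood at 44.6 to 63.3 CPM in WT and 43.0 to 52.4 in homo pre-pro B libraries (−0.16 ± 0.13, edgeR adjusted p = 0.4). Lat fell in pre-pro B cells by 0.44 ± 0.11 on the log2 scale (edgeR adjusted p = 0.0145, 0.0542 without WT replicate 1 and 0.0532 without homo replicate 1). Over the whole T lineage list 2 genes rose and 4 fell of 15 tested in pre-B cells, and 10 rose and 5 fell of 29 in pre-pro B cells. Beside these and the list counts that follow stand the shares over all genes given above, 7.42% higher and 8.45% lower in pre-B cells and 12% and 10.4% in pre-pro B cells, where all calls fell from 2730 to 213 with the library size covariate and 605 with the sex term.

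Among adhesion and migration genes, Ccr7 fell in pre-B cells, from 91.5, 83.9 and 86.7 to 49.4, 53.5 and 28.7 CPM (−0.95 ± 0.20, edgeR adjusted p = 0.00895). In pre-pro B cells it rose, from 11.2, 14.5 and 11.1 to 18.3, 21.1 and 21.7 CPM (0.73 ± 0.16, 0.00923). Itga6 rose in pre-pro B cells, from 7.61, 7.09 and 7.22 to 17.1, 16.6 and 18.4 CPM (1.25 ± 0.16, edgeR adjusted p = 0.00144). Of the list's 25 genes, 6 rose and 5 fell in pre-B cells, and 5 rose and 9 fell in pre-pro B cells. In the other lists the counts of rises and falls were, in pre-B and then pre-pro B cells, 2 and 3 of 20 and 3 and 5 of 22 for the Notch pathway, 1 and 2 and 1 and 4 of 26 for the B lineage, 1 and 0 and 2 and 3 of 21 for the Ikaros family and NuRD, 5 and 1 of 28 and 15 and 1 of 27 for the cell cycle, and 0 and 3 of 19 and 1 and 4 of 20 for glucose and energy metabolism. The median log2 fold change of these lists in pre-B cells ran from −0.09 to 0.34, and in pre-pro B cells from −0.15 to 0.60, the cell cycle list being highest in both.

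The largest rises in pre-pro B cells near one of the regions were those of Nkg7, Sidt1, Skap1, Gimap4, Chn2 and Rtkn2. Nkg7, a granule gene of natural killer and cytotoxic T cells, stood at 2.85, 1.86 and 2.98 CPM in WT libraries, at 7.72, 19.3 and 15.5 in het libraries, and at 13.4, 22.5 and 24.0 in homo libraries (2.95 ± 0.40, edgeR adjusted p = 0.00294). Its region (chr7:43443590-43443923, fold 3.19, −log10 q-value 1.42) lay 5344 bp away. Other genes were nearer: the region overlapped Cldnd2 and shared 102 bp with the promoter window of Etfb. Etfb was not called in pre-pro B cells (−0.01 ± 0.08, edgeR adjusted p = 0.965). Nkg7 is itself one of the 5 markers of natural killer and innate lymphoid cells listed, all of which rose there. The other 4 summed to 18.2 to 25.4 CPM in WT and 91.5 to 165 in homo libraries. Myeloid markers also rose, 4 of 5, from 18.4 to 30.6 CPM in WT to 104 to 150 in homo libraries. The part of these cells in the change of Nkg7 was not tested, and in bulk RNA more cells of a type and more RNA per cell cannot be told apart. Sidt1, an RNA transporter gene, rose by 2.89 ± 0.40 (edgeR adjusted p = 0.00179), Skap1, a T cell adaptor gene, by 2.65 ± 0.50 (0.00586), Chn2 by 1.89 ± 0.40 (0.00798), and Rtkn2 by 1.73 ± 0.28 (0.0038).

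Falls in pre-pro B cells near one of the regions were modest. Some marker lists summed lower there too. The 4 pre-pro B and plasmacytoid dendritic markers summed to 2440 to 2770 CPM in WT and 1950 to 2030 in homo libraries, with none called. The 14 thymocyte and T lineage markers summed to 899 to 1010 and 722 to 786 CPM, with 1 called higher and 2 lower. Cd4 was the largest part of that sum, with means of 530 CPM in WT and 355 in homo libraries. The other markers moved both ways, with Cd8a at 137 and 95.6 CPM and Lck at 35.2 and 51.0. The part of these markers in the falls was not tested. Clmp fell by 1.58 ± 0.47 on the log2 scale (edgeR adjusted p = 0.0321), St8sia6 by 1.21 ± 0.35 (0.0304), Slfn5, an interferon-induced gene with a pair of regions, by 1.00 ± 0.29 (0.0498) and Herc6, also interferon-induced, by 0.68 ± 0.12 (0.00559). Zfp691 fell by 0.57 ± 0.10 (edgeR adjusted p = 0.004) and Ifi27l2a, a further interferon-induced gene with a region 33 bp away in both pre-B lists, by 0.56 ± 0.13 (0.0145). Of the 25 calls among the genes named by rule in pre-pro B cells, 5 held under every alternative run: those of Sh3pxd2a, Nkg7, Sidt1, Zfp691 and Itga6. Of the 20 such calls in pre-B cells 13 did.

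Ikzf3, which carries the substitution, was read at 545, 549 and 517 CPM in WT and 491, 460 and 612 in homo pre-B libraries (−0.05 ± 0.14, edgeR adjusted p = 0.853), with overlapping groups. Ikzf1 stood at 777, 811 and 756 and at 793, 773 and 1260 CPM there (0.27 ± 0.19, edgeR adjusted p = 0.392). In pre-pro B cells Ikzf1 fell, from 708, 692 and 656 to 546, 559 and 570 CPM (−0.30 ± 0.08, edgeR adjusted p = 0.0236). That call was lost with library size as a covariate (edgeR adjusted p = 0.178) and with a sex term (0.144). It was also lost without WT replicate 1 or 2 or any homo replicate (0.0603 to 0.12). Ikzf3 was not called in pre-pro B cells (0.03 ± 0.13, edgeR adjusted p = 0.897). A missense change leaves the transcript in place, so these levels do not check the genotype labels.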

How the data were processed

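Per the labels, the authors immunoprecipitated Ikaros or Aiolos from thymocytes and cultured pre-B cells and sequenced RNA of sorted B cell precursors. The deposited broad peak lists hold 4 values a region, used as the authors deposited them: a fold ratio, a score, and the p-value and q-value as −log10; the deposited score is the −log10 q-value times 10 without decimals, as checked on the WT thymocyte list. The deposited RNA files hold raw read counts for 24459 gene symbols and 5 entries that name no gene, 29.85% to 40.15% (no gene) and 0.73% to 0.8824% (more than one gene) of a library, left out here. The submitters' processing notes name mm10 and, with no role given, MACS2 2.1.1, HISAT2 2.1.0 and STAR 2.7.0. The control, the thresholds and whether libraries were scaled to equal depth before peak calling are not given in the sources used here, and ChIP depth is unknown.

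Coordinates are counted from 1. Overlap of 1 bp or more was computed in Python 3.11.15 and checked with bedtools 2.31.1. Gene positions, protein-coding genes and receptor segments only, came from a RefSeq table of GRCm38.p6 without exons; 84% of the count table's symbols matched. Promoter windows were not given for chromosome 18 or scaffolds. Elsewhere the starts of some genes were missing too: a region inside Ube2w lay 1543170 bp from the nearest listed start. RNA was fitted within each stage's 9 libraries with edgeR 4.0.16 in R 4.3.3 (filterByExpr, TMM, robust quasi-likelihood F test). Alternatives included DESeq2 1.42.0, other filters, covariates and leaving out each library. The fit was also run on counts simulated from its own WT means and dispersions. Those counts held no effect of sex or library size on a gene's level, so that run cannot speak to either. Wilson intervals (95%) and count intervals cover counting error only; where a group had no counts a floor of 3 counts over the group was used.

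The members and gene lists were chosen with earlier results of these data known. Regions and genes were named by rule: the 15 regions of highest fold, the 12 strongest in both pre-B lists, the 3 nearest to a mutant region and the 3 shared regions of smallest overlap, the 3 widest, those in Aiolos lists, groups of 3 or more within 100 kb, the 6 genes called with the largest rise and the 6 with the largest fall per stage within 10 kb of a member, list genes within 10 kb, and Ikzf1 and Ikzf3. The strength groups, promoter comparison, receptor loci, WT-only pre-B regions and the fit of the difference between stages were added after values were seen.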

Additional observations from a re-analysis of the deposited data

Results flagged for a closer look

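Effects of homo against WT differed between pre-B and pre-pro B cells for 17 of the 38 named genes that the fit of the difference could test, by an interaction term in edgeR over all 18 RNA libraries (adjusted p under 0.05); 1809 of all 12440 genes passed. Many of the 38 were chosen for a large change within a stage, which favours a difference between stages, so their share is no result about them. This fit was added after the values were seen. Same-numbered libraries of the stages had the same karyotype in 9 of 9 cases. The labels do not say whether they share animals, and the fit treats them as independent. Each value is the log2 fold change in pre-B cells minus that in pre-pro B cells. It was higher in pre-B cells by 3.99 for Antxr1 (adjusted p = 0.0341), 2.07 for Trio (4.55e-08), 1.65 for Slit1 (0.0432), 1.34 for Sestd1 (0.0431) and 0.69 for Satb1 (0.00647). It was lower for Galnt10 (−5.14, adjusted p = 1.87e-08), Tle2 (−3.71, 0.000191), Trim7 (−3.25, 0.00647), Sh3pxd2a (−2.74, 2.88e-07), Cyth4 (−2.49, 2.36e-05), Sidt1 (−2.41, 0.00741) and Chn2 (−2.31, 0.0163). It was also lower for Ccr7 (−1.67, adjusted p = 0.000272), Lck (−1.31, 0.00223), Rtkn2 (−1.14, 0.0134) and Itga6 (−0.92, 0.00196).

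For Dll4 the value was −5.06 (adjusted p = 0.0106), but no homo pre-B library had a count, so this fitted value depends on the prior count. WT pre-B libraries held 15 counts in all. Antxr1 had only 5 counts in WT and 2 in homo pre-pro B libraries.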

How the results depend on the processing

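Regions. With WT regions at or above the median −log10 q-value, 165 regions were absent in the mutant, with a median fold of 5.17 and width of 294 bp; the WT pre-B list held 34.5%, the mutant one 42.4%, and 0.621% overlapped a promoter window. With mutant regions of −log10 q-value 5 or more, 1608 were absent, with a median width of 272 bp and 8.35% at promoter windows. Here the set itself differs by construction. Within 5 kb of a gene lay 58.9%, within 50 kb 84.2% and in gene bodies 49.0%. Other overlap rules, and leaving out the 2 groups of 10 regions (added after seeing the data), moved no region value beyond its interval.

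RNA. Over all genes, pre-B calls numbered 3456 with library size as a covariate, and pre-pro B calls 213 with that covariate and 605 with a sex term. Near the regions these settings gave 152, 10 and 25 calls. Within 50 kb, 180 genes in pre-B and 242 in pre-pro B cells were called, and 74 in pre-pro B cells where the gene body held a region. Leaving out 1 library gave 1055 to 2097 pre-B calls, 61 to 108 near the regions, and 1112 to 3646 pre-pro B calls, 38 to 147 near them. In pre-pro B cells 53.7% of all calls were higher, 72.7% with a sex term and 69.2% without WT replicate 1. The cause was not tested. None of the 52 called values of named genes changed sign under an alternative, while 32 of 66 that were not called did; 182 of their values under alternatives lost the threshold and 18 gained it.

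With the replicate number as a block, 1125 pre-B and 2747 pre-pro B genes were called, 68 and 115 near the regions. Deviations of same-numbered WT and homo libraries correlated at 0.16, −0.0294 and 0.136 in pre-B and −0.0201, −0.0167 and 0.0833 in pre-pro B cells. The labels name no pairing, and these values cannot tell whether such samples share more than a number. ChIP depth is unknown and each list rests on 1 library.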
